A study of Mus musculus with 2 samples.

Results

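The genes described here are 41 interferon-stimulated antiviral effectors that lie outside the Ifit, Oas, Gbp, Irg, Ifitm, Parp and Irf families. Members were taken by gene symbol from a given list, and all 41 were found among the 25509 genes of the deposited count table. They were compared between 1 RNA-seq library of circCsnk1g3-silenced sarcoma cells (shcircCsnk1g3, the silenced library) and 1 library of control cells (shCTR, the control library). Both libraries came from C57BL/6 mesenchymal cells that lack p53 and overexpress Ccne1 (p53-/-Ccne1+), which had been passed through a subcutaneous tumor in mice, seeded in the lungs of further mice and taken back from lung foci. Each culture was then transduced with its hairpin in a lentiviral vector, so that by their labels the libraries share genotype and history and differ in the hairpin. The hairpin against circCsnk1g3 targets its backsplice junction. How many clones or animals each culture stands for is not given in the sources used here. With 1 library per condition there is no replicate check, and no p-value is given. The question was which of these effectors differed in the sarcoma cells when circCsnk1g3 was silenced.

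Type I interferon binds a receptor made of Ifnar1 and Ifnar2, and the kinases Jak1 and Tyk2 then act on the cell's signaling factors. The complex ISGF3, which holds Stat2 and Irf9, binds the interferon-stimulated response element in the promoters of the genes it switches on. The products act at many steps against viruses: some cut or bind viral RNA, some change nucleotide pools or the nuclear bodies, and others tag proteins for degradation or adjust the signal itself. Many of the genes have a basal level in fibroblast-like cells without any virus, and that level differs widely from gene to gene.

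The silenced library held 38792143 estimated counts and the control library 42709996. Levels were scaled with TMM factors of 1.01 and 0.989 to CPM, the counts of a gene relative to the scaled library total, and log2 fold changes were taken from CPM after a prior count of 2 was added. The range printed after a log2 fold change comes from the 95% exact binomial interval (Clopper-Pearson) for the 2 counts and covers counting error only. Its half-width is 1.42, 0.41 or 0.13 on the log2 scale for genes with 10, 100 or 1000 counts in each library. Linear Csnk1g3 had 2159 and 2411 counts in the silenced and control libraries, and the circular RNA, without a poly(A) tail, was not measured. Mesenchymal markers were present, with 225330 and 282350 counts of Vim and 13678 and 15747 of Col1a1, although Thy1 had 0 and 1. The 9 leukocyte markers summed to 90 and 163 counts, of which Cd68 held 87 and 155, while Ptprc had 1 and 0 and Cd3e, Itgam, Itgax, Adgre1 and Lyz2 had 0 in both. The 4 endothelial markers summed to 17 and 24 counts and the 5 lung epithelial markers to 93 and 52, of which Krt8, also made outside the lung, held 92 and 46. A pair of transcripts inside the ribosomal RNA gene, Yam1 and Gm42418, held 0.411% of the counts in the silenced library and 0.127% in the control library, and the part of this difference in the results below was not tested.

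A gene was compared if either library gave it 10 counts or more, which 39 of the 41 members met, each of them in both libraries. The members left out by this filter were Phf11b, with 9 counts in the silenced library and 4 in the control library, and Epsti1, with 5 and 8. After silencing, 11 of the 39 members were at least 1.5-fold higher, a share of 28.2%, where 5.39% of all 12941 genes compared were that much higher. The members and this threshold were chosen with earlier results of these data known, so the contrast with all genes is a description only. Only 1 member, Isg20, was at least 1.5-fold lower, where 6.31% of all genes were. At 2-fold, 5 members were higher and 0 lower, against 2.13% and 2.55% of all genes. The counting interval lay above 0 for 25 members (26.9% of all genes) and below 0 for 5 (28.2% of all genes). The median log2 fold change of the 39 members was 0.26, over a range from -0.61 to 1.97, and that of all genes was 0.00. Together the 41 members held 62595 counts in the silenced library and 58325 in the control library.

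**Figure D1:**
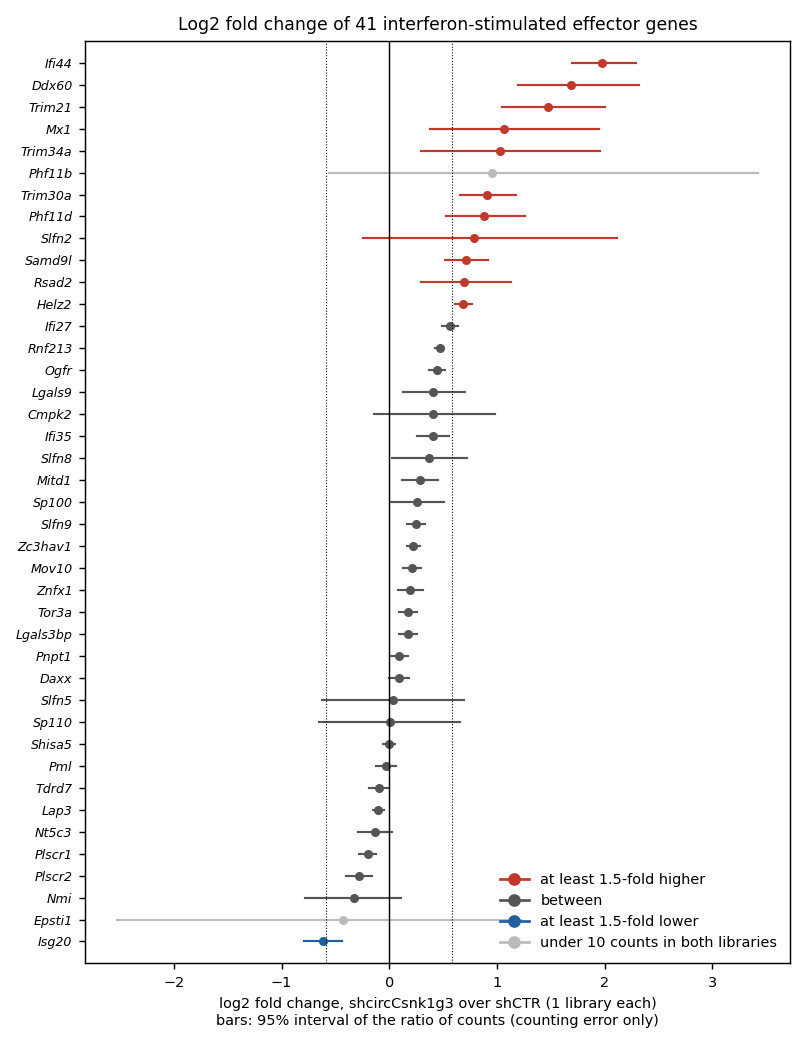
Log2 fold change of each of the 41 members, shcircCsnk1g3 over shCTR, from 1 library each. Points come from TMM-scaled CPM after adding a prior count of 2, bars are 95% counting intervals, and dotted lines mark 1.5-fold. Ifi44, at 1.97, is at the top and Isg20, at -0.61, at the bottom, and most members lie between the dotted lines.

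The promoters of the members that differed most are shown before their values, because most of them carry letters of the element that ISGF3 is known to read. RefSeq promoters on GRCm38.p6, from 250 bases before to 50 bases after each start, were matched by symbol to 37 of the 41 members, and Mx1, Ifi27, Plscr2 and Tor3a had no entry. The motif searched was GAAANNGAA on either strand, the core of the interferon-stimulated response element. It was found in promoters of 16 of the 37 members (43.2%), where 9.76% of all 27025 genes with a promoter entry and 8.56% of those compared in these libraries hold it. The members were listed as interferon-stimulated genes, so a higher share among them is not a result of these libraries. Among members at least 1.5-fold higher, 7 of 10 with a promoter entry held it (70.0%), and among the other members 9 of 27 (33.3%). These shares hold for the searched spacing only, as sites with the same letters at a closer spacing were not counted. The core of the gamma-activated site, TTCNNNGAA, reads the same on both strands apart from its open letters. It was found in 5 of 37 members, 0 of which were at least 1.5-fold higher, and in 9.55% of all genes. A match of letters is a description of the sequence and not of binding.

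The windows below show the core in capitals with up to 10 bases on each side, each read on the strand that carries GAAANNGAA. Positions count bases along the gene from its start, negative before it, and give the end of the core that comes first. The first 8 belong to the 7 members that were at least 1.5-fold higher and hold the core, Slfn8 and Slfn9 show the same core letters in neighboring genes, and Tdrd7 shows a core in a member that was not higher.
Ifi44 (chr3:151749895-151749923): caagcctgtaGAAAATGAAgagaaacttt
Ddx60, upstream copy (chr8:61928024-61928052): gtgatgaatgGAAACCGAAacttaaagct
Ddx60, downstream copy (chr8:61928058-61928086): gagcagaagaGAAACCGAAactatccttc
Trim21 (chr7:102565451-102565479): cctctgagagGAAACTGAAagtgaaattt
Trim34a (chr7:104244458-104244486): gcagagaaaaGAAACTGAAactccaaacc
Trim30a (chr7:104465210-104465238): caggaactgaGAAAAAGAAactaaagaac
Samd9l (chr6:3399522-3399543): atcgaaactgGAAACTGAAgca
Rsad2 (chr12:26456553-26456581): tctgttttctGAAAATGAAagttggacca
Slfn8 (chr11:83020839-83020867): tgcttttgggGAAAACGAAactgctcaaa
Slfn9 (chr11:82991856-82991884): ttgtttttggGAAAACGAAactgctcgga
Tdrd7 (chr4:45972096-45972124): gaactttgtgGAAAGAGAAataaatccac
The core letters were identical, GAAACCGAA, in both copies at Ddx60, at -53 and -19 from the start. Trim21 and Trim34a shared GAAACTGAA with Samd9l, and at Trim21 a further core at 20 overlaps the one shown at 14. Slfn8 and Slfn9 shared GAAAACGAA. The Tdrd7 core lies at -191 from 1 of its 3 listed starts, and those of Trim21, Trim34a and Samd9l lie after the start. Isg20, the member that was lower, holds the other core, TTCNNNGAA, at -73, shown last in capitals.
Isg20 (chr7:78913341-78913369): ctggggagggTTCTTGGAAtttttccttt

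**Figure D2:**
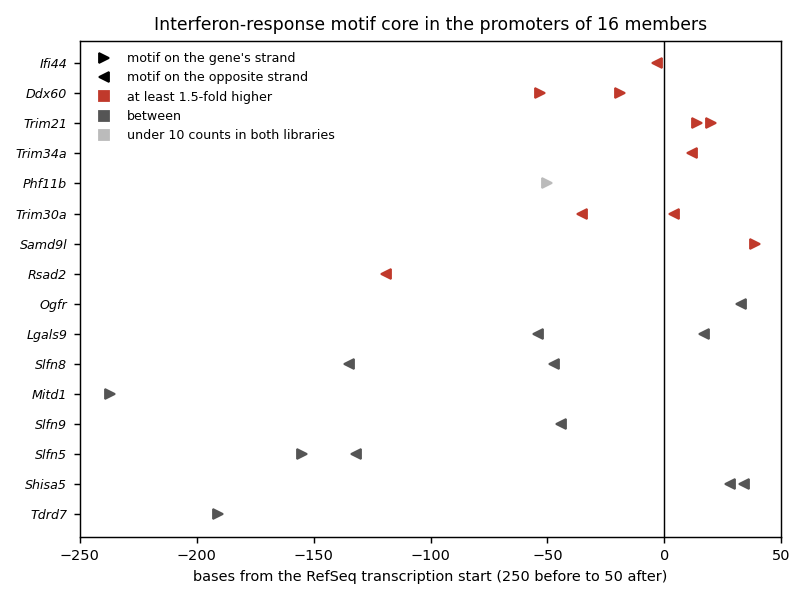
Position of the motif core in the promoters of the 16 members that hold it, in bases from the RefSeq start (vertical line at the start), ordered by log2 fold change. Triangles point along the strand that carries the motif and colors give the fold class. Members at least 1.5-fold higher have their cores between -119 (Rsad2) and 39 (Samd9l).

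The whole window of Ddx60 (GRCm38 chr8:61927837-61928136, plus strand), with both cores in capitals, and the first of 3 listed windows of Isg20 (chr7:78913174-78913473, plus strand), the member that was lower, in which the search found no GAAANNGAA, read as follows.
Ddx60: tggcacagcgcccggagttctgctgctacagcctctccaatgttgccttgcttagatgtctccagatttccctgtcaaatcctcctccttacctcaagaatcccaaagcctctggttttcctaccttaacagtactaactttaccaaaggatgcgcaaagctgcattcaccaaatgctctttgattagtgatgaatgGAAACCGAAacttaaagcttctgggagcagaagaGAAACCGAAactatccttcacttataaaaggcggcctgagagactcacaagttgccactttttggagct
Isg20: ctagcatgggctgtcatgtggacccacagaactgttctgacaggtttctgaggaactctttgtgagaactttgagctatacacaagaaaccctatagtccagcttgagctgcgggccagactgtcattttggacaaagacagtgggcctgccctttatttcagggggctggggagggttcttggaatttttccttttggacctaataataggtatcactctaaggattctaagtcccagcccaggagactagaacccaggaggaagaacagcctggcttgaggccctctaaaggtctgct

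Among members that act on RNA and nucleotides, 4 of 11 were at least 1.5-fold higher and 1 lower, where 5.39% and 6.31% of all genes were. Their median log2 fold change was 0.22. Ddx60, a DExD/H-box helicase linked to RIG-I signaling (ENSMUSG00000037921, chromosome 8, 61928087 to 62038244, GRCm38), had 115 counts in the silenced library and 37 in the control library. Its log2 fold change of 1.69 (1.198 to 2.32) came next after that of Ifi44 among the members. Mx1, a dynamin-like GTPase that blocks influenza virus, had 45 and 22 counts, a log2 fold change of 1.07 with a wide interval of 0.37 to 1.95. The C57BL/6 allele of Mx1 is known to lack coding exons, so that its transcript is read here as an interferon-stimulated RNA and not as an active protein.

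Rsad2, which encodes viperin and makes a chain-terminating nucleotide, lies on chromosome 12 next to Cmpk2, a mitochondrial nucleotide kinase. Rsad2 had 123 and 81 counts, a log2 fold change of 0.70 (0.29 to 1.13). Cmpk2 had 62 and 50 counts, and its value of 0.40 (-0.14 to 0.99) had an interval that held 0. The neighbors were thus both higher in the silenced library, but only for Rsad2 was the difference beyond counting error. Helz2, a helicase and nuclear receptor coactivator, combined a fold past the threshold with high counts. It had 2950 and 1971 counts, or 75.2 and 46.7 CPM, and a log2 fold change of 0.69 (0.61 to 0.77).

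The other RNA-acting members differed less. Zc3hav1, the CpG-binding zinc finger antiviral protein ZAP, had 4963 and 4581 counts, a log2 fold change of 0.22 (0.16 to 0.28). Mov10, a helicase that restrains retroelements, had 2315 and 2157 counts and Znfx1, a mitochondrial sensor of double-stranded RNA, 1215 and 1142, with log2 fold changes of 0.21 and 0.20. All 3 intervals lay above 0, as did those of 26.9% of all genes. Pnpt1, the mitochondrial polynucleotide phosphorylase, had 2203 and 2229 counts and a log2 fold change of 0.09 (0.00 to 0.18). Tdrd7, a Tudor domain protein that restrains autophagy used by paramyxoviruses, had 1750 and 2018 counts and a log2 fold change of -0.10 (-0.19 to -0.00).

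Isg20, an exonuclease that degrades single-stranded RNA (ENSMUSG00000039236, chromosome 7, 78913424 to 78920396), went the other way. It had 430 counts in the silenced library and 710 in the control library, or 10.97 and 16.8 CPM, and a log2 fold change of -0.61 (-0.79 to -0.44). With total counts in place of TMM factors the value was -0.58, just short of 1.5-fold. Its relative Isg20l2, a ribosomal RNA processing nuclease, had 2896 and 3141 counts and a log2 fold change of -0.01.

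The TRIM ubiquitin ligases all passed 1.5-fold, 3 of 3, where 5.39% of all genes were that much higher and 10.7% of genes in the CPM range of the lower members. The group summed to 511 counts in the silenced library and 262 in the control library. Trim21, a cytosolic antibody receptor and ligase (ENSMUSG00000030966, chromosome 7, 102557921 to 102565486), had 138 and 52 counts, a log2 fold change of 1.48 (1.05 to 2.005). Trim30a, a mouse ligase that dampens NF-kappaB signaling, had 333 and 190 counts, a log2 fold change of 0.91 (0.66 to 1.18). Trim34a had 40 and 20 counts, a log2 fold change of 1.03 (0.30 to 1.96). All 3 genes lie on chromosome 7, Trim34a and Trim30a in a cluster of close copies. Of all 50-mers of the Trim34a transcripts, 39.8% occur in another gene, Trim34b, so that the estimate depends on how RSEM divided such reads. A gene on the other strand, Gm47248, covers 23.5% of the Trim34a exon bases, and whether counting used strand is not given. Trim34b had 8 and 0 counts, and the sum of both genes was 48 and 20, a log2 fold change of 1.28 (0.59 to 2.201).

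Several relatives of the TRIM members that are not on the list were also higher in the silenced library. Trim12a had 86 and 31 counts and Trim12c 173 and 77, with log2 fold changes of 1.52 (0.97 to 2.22) and 1.25 (0.88 to 1.68). Trim30d had 226 and 155 counts (0.64), and the 4 Trim30 genes summed to 562 and 346 counts (0.80, 0.61 to 1.005). Trim26 and Trim25, the latter a ligase that modifies RIG-I, were between the thresholds with 0.50 and 0.31, and Trim5 was too low to compare, with 4 and 9 counts.

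**Figure D3:**
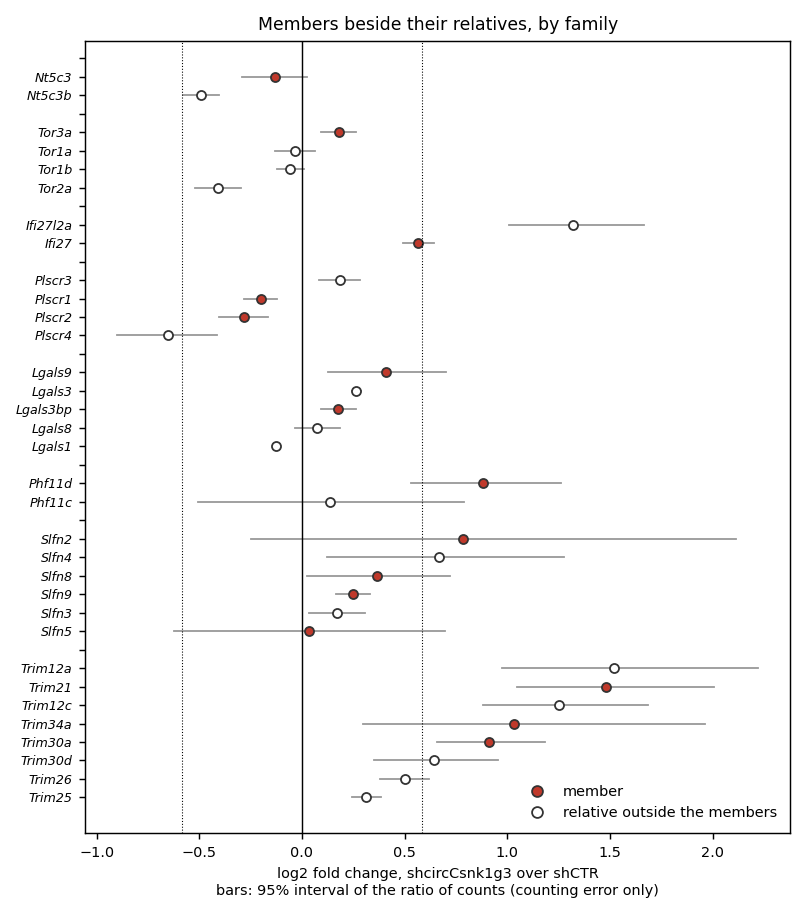
Log2 fold change of members (filled) and of relatives outside the members (open) that passed the count filter, grouped by family, with 95% counting intervals and dotted lines at 1.5-fold. In the TRIM family all 8 genes shown are above 0, whereas scramblase genes lie from -0.65 (Plscr4) to 0.18 (Plscr3).

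All 4 Schlafen members, which include RNA-cleaving proteins and regulators of lymphocyte quiescence, had values above 0, as did 6521 of all 12941 genes, but that of Slfn5 was 0.04. Slfn2 was the 1 of 4 past 1.5-fold (5.39% of all genes), on few counts. Slfn2 had 19 and 11 counts, and the interval around its value of 0.79 ran from -0.25 to 2.11. Slfn8 had 155 and 129 counts and Slfn9 had 2422 and 2197, with log2 fold changes of 0.37 (0.03 to 0.72) and 0.25 (0.16 to 0.33). Slfn5 had 40 and 42 counts, with no difference detectable at this depth (0.04, -0.62 to 0.70). Other genes share 14.6% of the 50-mers of Slfn8 and 11.5% of those of Slfn9, mostly Slfn10-ps, and the sum of Slfn8 and Slfn9 gave 0.26 (0.17 to 0.34). Outside the list, Slfn4 had 66 and 44 counts (0.67, 0.12 to 1.28) and Slfn3 had 905 and 866 (0.17).

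Phf11d, a PHD finger protein, had 174 and 101 counts, a log2 fold change of 0.88 (0.53 to 1.26). Its paralog Phf11b was below the filter, and 47.0% of its 50-mers occur in other genes, so that its 9 and 4 counts are uncertain in more than depth. Phf11c had 43 and 42 counts (0.14, -0.51 to 0.79) and Phf11a 3 and 1. The 4 genes summed to 229 and 148 counts, a log2 fold change of 0.73 (0.43 to 1.05).

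Proteins of PML nuclear bodies, which hold viral genomes silent in the nucleus, had log2 fold changes from -0.03 to 0.26, with a median of 0.05. With 5.39% of all genes higher and 6.31% lower by at least 1.5-fold, 0 of 4 in either direction is near the background. Pml, the scaffold of the bodies, had 1943 and 2139 counts, a log2 fold change of -0.03 (-0.12 to 0.06). Daxx, a histone H3.3 chaperone, had 1878 and 1904 counts and a log2 fold change of 0.09 (-0.01 to 0.18). Sp100, a chromatin-binding repressor of incoming viral DNA, had an interval above 0, as did 26.9% of all genes, with 293 and 263 counts and a value of 0.26 (0.02 to 0.51). Sp110 had 40 and 43 counts and a value of 0.00 (-0.66 to 0.66), and 36.0% of its 50-mers occur in other genes.

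Scramblases of the plasma membrane, which move lipids between its leaflets, were both lower in the silenced library. Plscr1 had 2290 counts in the silenced library and 2838 in the control library, and Plscr2, its neighbor on chromosome 9, had 997 and 1308. The log2 fold changes were -0.20 (-0.28 to -0.12) and -0.28 (-0.40 to -0.16), so that both intervals lay below 0, as did those of 28.2% of all genes, and both values were far from 1.5-fold. Outside the list, Plscr4 was at least 1.5-fold lower, with 224 and 380 counts (-0.65, -0.90 to -0.41), and Plscr3 was higher within the thresholds, with 1708 and 1621 (0.18, 0.08 to 0.28).

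Nmi and Ifi35, partner proteins that bind each other in interferon-treated cells, had values of opposite sign. Ifi35 had 830 and 676 counts, a log2 fold change of 0.40 (0.26 to 0.55), with Gm11626 on the other strand over 16.8% of its exon bases. Nmi had 75 and 102 counts, and its value of -0.33 had an interval that held 0 (-0.79 to 0.11). The lectin Lgals9 (galectin-9, a ligand of the T cell receptor Tim-3) had 225 and 182 counts, a log2 fold change of 0.41 (0.13 to 0.70). Lgals3bp, a secreted glycoprotein that binds galectin-3, had 2396 and 2283 counts, a log2 fold change of 0.18 (0.09 to 0.26).

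Ifi44, a cytoplasmic protein of the interferon response (ENSMUSG00000028037, chromosome 3, 151730922 to 151749960), differed most of all members. It had 447 counts in the silenced library and 121 in the control library, or 11.4 and 2.86 CPM, a 3.93-fold difference after the prior count of 2 was added. Its log2 fold change of 1.97 (1.70 to 2.29) was larger than those of 99.6% of the genes compared. None of its 50-mers occurs in another annotated gene, and its relative Ifi44l had 0 counts in both libraries. Samd9l, a restriction factor of poxviruses that also stops translation, had 517 and 339 counts, a log2 fold change of 0.71 (0.52 to 0.92).

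Several abundant members, unlike Helz2, stayed under 1.5-fold while their differences were far beyond counting error. Ifi27, a small mitochondrial protein, had 3464 and 2520 counts, and its log2 fold change of 0.57 (0.49 to 0.64) lay just under the threshold of 0.58. With total counts in place of TMM factors it was 0.60 and passed. Its relative Ifi27l2a, which is not on the list, had 262 and 112 counts and a value of 1.32 (1.01 to 1.67). Rnf213, a giant ubiquitin ligase that coats bacteria and lipid droplets, had the most counts of any member, 10529 and 8199. Its log2 fold change was 0.47 (0.43 to 0.51), and an antisense gene, A930037H05Rik, covers 8.74% of its exon bases. Ogfr, the opioid growth factor receptor, had 3315 and 2622 counts (0.45, 0.37 to 0.52).

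The remaining members lay between -0.13 and 0.29 on the log2 scale. The intervals of Mitd1 and Tor3a lay above 0, as did those of 26.9% of all genes, and that of Lap3 below 0, as did those of 28.2%. Mitd1, which acts in the abscission step of cell division, had 621 and 548 counts (0.29, 0.12 to 0.46), and Tor3a, an ATPase of the endoplasmic reticulum, had 2387 and 2273 (0.18, 0.09 to 0.26). Shisa5, a p53-inducible protein of the endoplasmic reticulum, had 4448 and 4805 counts and a log2 fold change of -0.00 (-0.06 to 0.06). Lap3, leucine aminopeptidase, had 5784 and 6687 counts (-0.10, -0.15 to -0.05), and the pyrimidine nucleotidase gene Nt5c3 had 610 and 721 (-0.13, -0.29 to 0.02).

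Levels per exon length set the scale of these differences. In the control library the highest level per kb of exon was that of Lap3, at 51.1 CPM per kb, followed by Ifi27 at 40.7 and Shisa5 at 34.5. Ifi44 was at 0.467 CPM per kb, Trim21 at 0.331, Mx1 at 0.138 and Ddx60 at 0.101. In the silenced library Ifi27 was the highest, at 60.2 CPM per kb against 47.6 for Lap3, while Ifi44 was at 1.86 and Ddx60 at 0.338. Ddx60, Trim21 and Mx1 thus stayed below 1 CPM per kb in both libraries, while Ifi44 passed it in the silenced library alone.

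**Figure D4:**
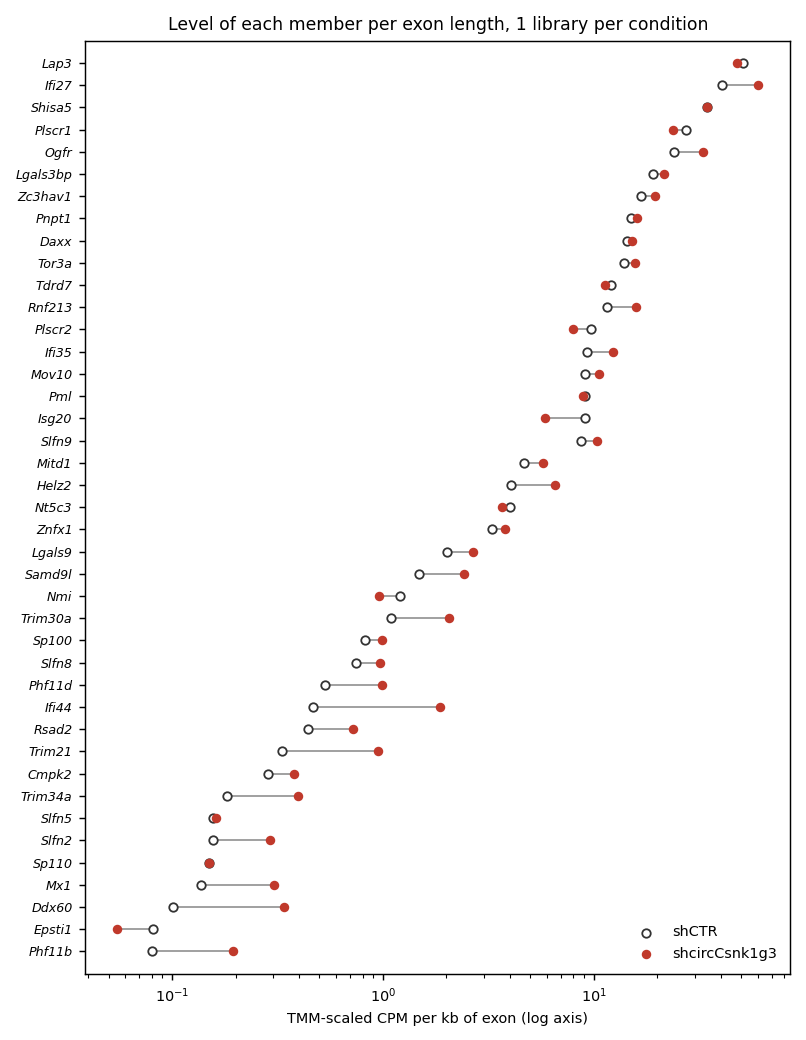
Level of each of the 41 members as TMM-scaled CPM per kb of exon on a log axis, in the control library (open) and the shcircCsnk1g3 library (filled), ordered by the control level. There is 1 library per condition and no error bar. The widest gaps are at Ifi44 (0.467 to 1.86) and Ddx60 (0.101 to 0.338), and the points of Shisa5 lie on each other.

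The 39 members were also ordered by their mean CPM over both libraries. Of the 19 lower members, from 0.372 to 14.4 CPM, 10 were at least 1.5-fold higher, where 10.7% of the 3898 genes in that range were. Of the 20 upper members, from 16.3 to 231 CPM, 1 was at least 1.5-fold higher, where 0.871% of the 7229 genes in that range were. The median log2 fold changes of the members were 0.70 and 0.18, and those of all genes in the same ranges 0.03 and -0.00. Fold changes of low genes scatter more in these libraries, as the shares of all genes show. Where both libraries together gave 200 counts or more, 6 of 30 members were at least 1.5-fold higher and 1 lower, where 1.99% and 3.14% of the 10662 such genes were.

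**Figure D5:**
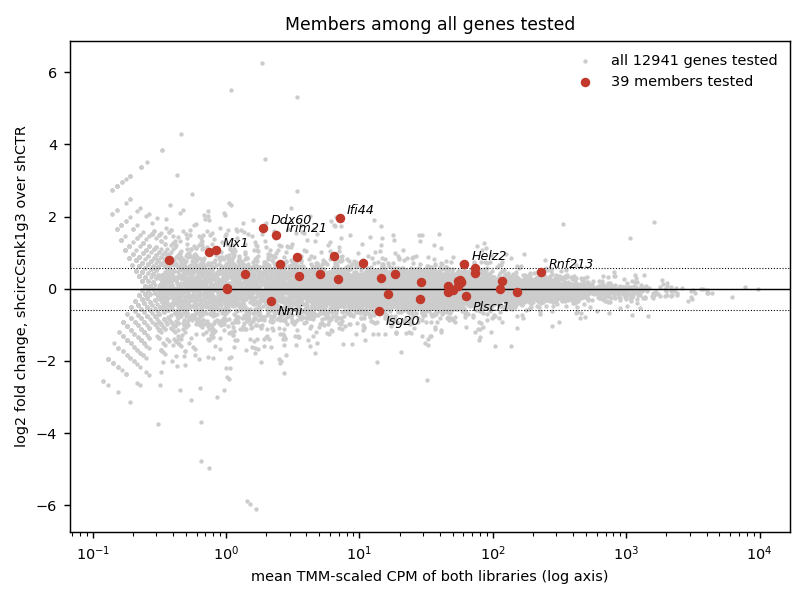
Log2 fold change against mean TMM-scaled CPM of both libraries (log axis) for all 12941 genes compared (grey) and the 39 members compared (red), with dotted lines at 1.5-fold. Members past the upper line are at 14.4 CPM or less for 10 of 11, with Helz2 as the exception, and Isg20 lies past the lower line.

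The values of members with and without the motif core overlapped widely. The 15 members compared that hold GAAANNGAA had a median log2 fold change of 0.45, from -0.10 (Tdrd7) to 1.97 (Ifi44), with 13 above 0 and 7 at least 1.5-fold higher. The 20 without it had a median of 0.19, from -0.61 (Isg20) to 0.88 (Phf11d), with 14 above 0 and 3 at least 1.5-fold higher. Of all 12941 genes compared, 6521 were above 0 and 5.39% at least 1.5-fold higher. Helz2, Phf11d and Slfn2 were at least 1.5-fold higher with no such match in the window searched. The windows of Helz2 and Phf11d do hold gaaacgaaa, the same letters at a closer spacing, which the search did not count. The window of Pnpt1, a member between the thresholds (0.09), holds it too, as does that of Ifi44 on the opposite strand. The split into members with and without the core, and its medians, thus depend on the spacing searched.

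The genes that carry the interferon signal to these effectors were compared as a list of 13, of which 4 were at least 1.5-fold higher and 0 lower, where 5.39% and 6.31% of all genes were. The median log2 fold change of the list was 0.16. The 4 higher genes were Usp18, which removes ISG15 and brakes the receptor, at 1.89 (1.59 to 2.23), Irf7 at 1.29, Irf9 at 1.14 (1.03 to 1.25) and Stat2 at 0.88 (0.75 to 1.01). Irf1, a factor also induced by interferon gamma, had 2093 and 1669 counts and a log2 fold change of 0.43. Receptor and kinase genes had log2 fold changes from -0.12 for Ifnar1 to 0.24 for Jak2. Socs1, a feedback inhibitor, was lower within the thresholds, with 326 and 482 counts (-0.45, -0.66 to -0.25).

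Relatives of the members outside the list served as a further comparison, 39 genes by name of which 37 were in the count table and 27 passed the count filter. Of these 27, 5 were at least 1.5-fold higher, where 5.39% of all genes were, and 1 was lower, near the 6.31% of all genes. Their median was 0.13. The 5 were Trim12a, Trim12c, Trim30d, Slfn4 and Ifi27l2a, of families that the members also represent, and the 1 was Plscr4. The other relatives compared lay between -0.55 (Sp140, 101 and 160 counts) and 0.50 (Trim26, 1329 and 1012 counts). Mx2 and Slfn10-ps were not analysed here.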

How the data were processed

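Poly(A) RNA of 2 sarcoma cell cultures was sequenced with a stranded kit, 1 library per condition. Per the article, the authors aligned reads with STAR to GRCm38 and estimated counts per gene with RSEM, whose estimated counts the deposited table gives as whole numbers. RSEM divides reads shared by close copies, and whether counting used strand is not given in the sources used here. A further table that the authors deposited holds CPM after TMM scaling in edgeR for 11624 genes, 38 members among them. Spike-in rows (92, all 0) were left out. TMM factors came from edgeR 4.0.16 with R 4.3.3, using genes that reached 10 counts in either library. Intervals and sums used python 3.11.15, scipy 1.17.1 and pandas 2.3.3. No test between conditions was made, and the steps were tested on simulated data. Exon lengths, coordinates and 50-mers shared with transcripts of other genes came from GENCODE M21 (25251 of 25509 identifiers found), and promoters from RefSeq. The members, lists and fold threshold were chosen with earlier results of these data known. Members with at least 50 summed counts past 1.5-fold, or with at least 1000 summed counts, were described with both counts, and the others by counts or range. Alternatives were DESeq2 1.42.0 size factors, total counts, the genes and implied library sizes of the deposited CPM, other prior counts, count filters and thresholds. From the planned list of interferon signaling genes, 1 gene is not reported here.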

Additional observations from a re-analysis of the deposited data

How the results depend on the processing

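No paired analysis was possible because each condition had a single library, and no replicate could be left out. Members at least 1.5-fold higher numbered 10 to 12 under every normalization, prior count and filter tried, except for 6 with at least 200 summed counts. With the 2-fold threshold, 5 were higher and 0 lower. The 1 lower member, Isg20, became 0 with total counts, which shift the median of all genes to 0.03. The median of the members stayed between 0.24 and 0.29. Slfn2 fell under 1.5-fold with a prior count of 10. The 698 higher and 817 lower genes of the whole table became 352 and 528 among the genes of the deposited CPM table. That alternative used the raw counts with library sizes implied by the deposited CPM. The numbers were 1765 and 1468 with no filter, 405 and 533 with at least 50 summed counts, 212 and 335 with at least 200, and 275 and 330 at 2-fold. Fewer genes are compared under the filters and in the deposited set by construction. All 301 values of single members stayed within their counting intervals, but they rest on the same counts as those intervals. The filters on summed counts leave single values unchanged by construction. A total of 2 members near 0, Pml and Shisa5, changed sign with total counts. Leaving out members with over 10% of 50-mers shared, an alternative chosen after seeing the data, left 10 higher, 1 lower and a median of 0.27.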
